A study of Mus musculus with 2 samples.

Results

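Monocytes of the lung were identified as all cells that the authors had annotated as monocytes, in either of 2 libraries of dissociated mouse lung. They numbered 342 of 18397 cells, with 160 among the 8793 cells of the control diet (CD) library and 182 among the 9604 cells of the high-fat diet (HFD) library. The mice were BALB/c females that entered their diet at 4 weeks of age, stayed on it for 16 weeks and were 20 weeks old at sampling. Fat, protein and carbohydrate gave 13%, 27% and 60% of the energy in CD, and 60%, 20% and 20% in HFD. The labels name no engineered allele or tumour in either group and do not give the number of mice per library. Each diet had 1 library, so no test was run and every interval covers counting error or the spread between cells of 1 library only. Animal, preparation and diet cannot be told apart.

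Monocytes are blood phagocytes made in the bone marrow. In mice, the classical kind carries Ly6C on its surface and leaves the marrow and enters tissue through the chemokine receptor CCR2, where it can become a macrophage or a dendritic-like cell. The patrolling kind has little Ly6C, depends on the nuclear receptor Nr4a1 and crawls along the wall of small vessels, of which the lung holds a very dense bed. In the perfused lung, monocytes are therefore found both within capillaries and in the tissue, beside interstitial macrophages, alveolar macrophages and dendritic cells.

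The name monocyte was given by the authors from the average expression of markers in each fine cluster. Gene values per cell were not analysed here, so the markers of the cells could not be read and neither the name nor a split into classical and patrolling cells could be checked. What could be read was which genes took part in the ordering of the cells. Ly6c2 (ENSMUSG00000022584), which encodes a Ly6C antigen, and Ccr2 (ENSMUSG00000049103), the receptor for the monocyte chemoattractant CCL2, were both among the 1000 highly variable genes on which cells were arranged. This flag marked 5.19% of the 19278 genes. In GRCm38, Ly6c2 occupies chromosome 15 from 75108158 to 75111970 (minus strand), and Ccr2 occupies chromosome 9 from 124101950 to 124113557 (plus strand). Ly6c1, a close relative of Ly6c2 that endothelial cells express, lies on the same strand of chromosome 15 from 75044018 to 75048830 and carried the flag too. It was looked up after the other genes had been seen.

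Of the 8 genes listed for classical monocytes 7 are reported here, and all 7 carried the flag (Ly6c2, Ccr2, Plac8, F13a1, Chil3, Vcan and Csf1r). Chil3 was also listed for alveolar macrophages, and Csf1r for patrolling monocytes. F13a1 encodes a subunit of coagulation factor XIII and Csf1r the receptor for the growth factor of macrophages. Of the 8 genes listed for patrolling monocytes, 7 carried it, among them Nr4a1, the fractalkine receptor Cx3cr1, Treml4 and Cd300e, and Ace did not. Of the 6 macrophage genes 5 were flagged, with the exception of Adgre1, which encodes a surface antigen of mature macrophages. Of the 7 dendritic cell genes 3 were flagged (Cd209a, Ccr7 and Siglech), and Flt3, Xcr1, Clec9a and Itgae were not. Among the 6 alveolar macrophage genes, 5 were flagged and Siglecf was not. The 5 neutrophil genes, the 4 NK cell genes, the 2 T cell genes and the 2 B cell genes were all flagged. The flag was set over all cells of both diets. It says neither which cells express a gene nor in which diet a gene is higher.

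No difference in the frequency of monocytes between the diets was detectable. Their share was 1.82% of all CD cells (95% exact interval 1.55 to 2.12) and 1.90% of all HFD cells (1.63 to 2.19). The share was 0.0754 percentage points higher in HFD, with a ratio of 1.04 (0.838 to 1.30). The intervals overlapped, whereas those of 29.4% of the 17 annotated types did not. Ratios of at least 1.5 in either direction were seen in 11.8% of the types and 19.6% of the 51 fine clusters, and monocytes were in neither set. Only pericytes, at 1.01, had a ratio closer to 1. With these cell numbers the interval still held a rise of the monocyte share to 1.30 times and a fall to 0.838 times.

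The choice of the total moved the ratio little. They made up 4.27% of the CD immune cells (3.65 to 4.97) and 4.85% of the HFD immune cells (4.18 to 5.58), which is a ratio of 1.13 (0.912 to 1.41). Among the mononuclear phagocytes, that is monocytes, both kinds of macrophages and both kinds of dendritic cells, they were 23.0% for CD (19.9 to 26.3) and 24.9% for HFD (21.8 to 28.2). Both denominators placed monocytes slightly higher in HFD, with intervals that overlapped. In RNA rather than cells, monocytes held 883315 of the 42470977 UMIs (unique molecular identifiers, each a captured transcript) in CD and 1180075 of the 50679251 UMIs in HFD, or 2.08% and 2.33%.

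Macrophages outside the alveoli are the type into which tissue monocytes can mature, so that the ratio of the 2 types was compared next. There were 1.25 monocytes per macrophage in CD (160 to 128 cells) and 1.19 in HFD (182 to 153 cells). The ratio between diets was 0.952 (0.685 to 1.32), and no difference was detectable at these cell numbers. With at most 10% mitochondrial UMIs allowed per cell, it was 1.00 (0.719 to 1.40). Per alveolar macrophage, the resident phagocyte of the airspace, 0.546 monocytes were counted in CD and 0.684 in HFD, which gives a ratio of 1.25 (0.948 to 1.66). Per conventional dendritic cell, which presents antigen to T cells, 1.88 and 2.04 monocytes were counted, with a ratio of 1.09 (0.741 to 1.59). Per neutrophil the numbers were 0.441 and 0.479, a ratio of 1.09 (0.834 to 1.42). Per plasmacytoid dendritic cell, which makes type I interferon, 5.33 and 4.55 monocytes were counted, and the ratio lay below 1, at 0.853 (0.489 to 1.48). Every one of these intervals included 1.

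**Figure D1:**
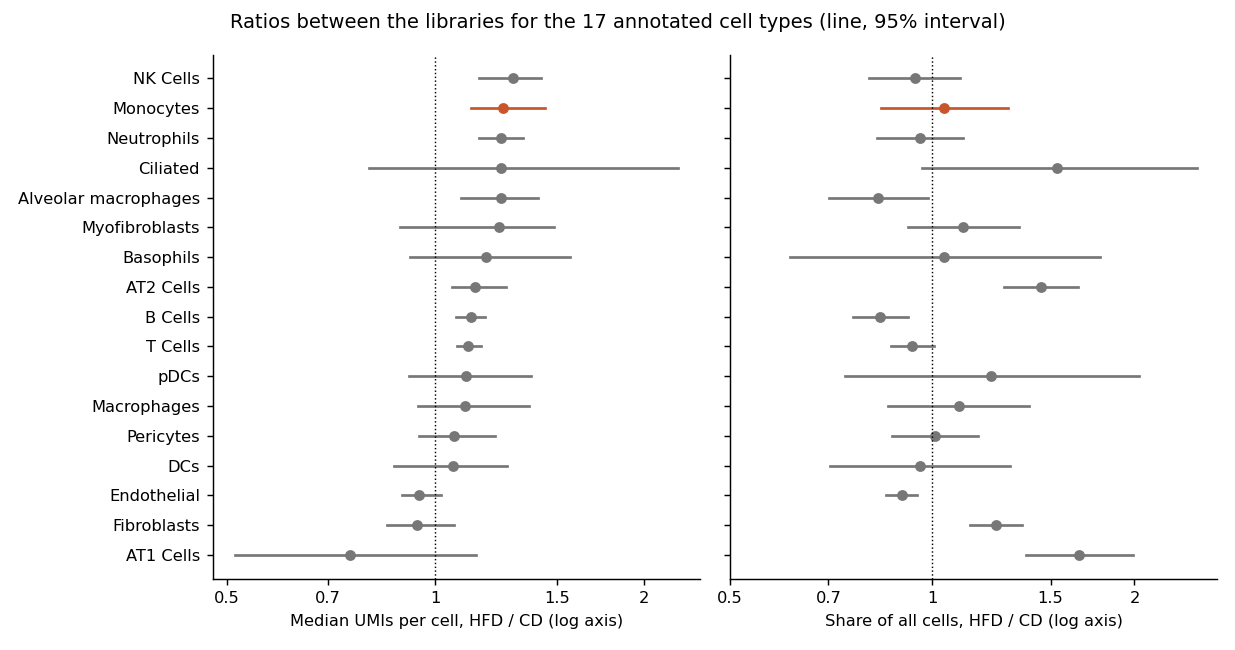
Ratio of HFD to CD for the 17 annotated cell types, on log axes. Median UMIs per cell are on the left and the share of all cells on the right. Lines on the left are the outer bounds from the 95% intervals of both medians, and lines on the right are 95% intervals. Monocytes (orange) lie near 1 for the share, at 1.04, and second from the top for UMIs, at 1.26.

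The monocytes formed a single fine cluster, number 23. It held all 342 monocytes and no cell of another annotation. Since types were assigned to whole clusters, a type of 1 cluster has the same make-up in both libraries by construction. Of the 17 types, 9 had 1 cluster each. In the UMAP plane, a map on which the authors had placed cells of similar expression next to each other, all 5130 links from monocytes to their 15 nearest neighbours went to other monocytes. The clusters had been drawn in this same plane, so that neighbours of the same type were nearly given in advance. The share of such neighbours was also 100% for macrophages and 99.5% for conventional dendritic cells. The nearest other cluster was that of the conventional dendritic cells, at 0.161 map units between the median positions. Macrophages lay at 0.546, alveolar macrophages at 1.08 and neutrophils at 1.22 to 1.24. Monocytes themselves lay within 0.0589 of their own median position. Distances on such a map are not proportional to differences in expression.

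The UMIs per monocyte differed between the libraries. CD monocytes had a median of 5065.5 UMIs (4627 to 5384), quartiles of 3834.5 and 6760.25 and a range from 1014 to 18969. HFD monocytes had a median of 6358 UMIs (6060 to 6675), quartiles of 4539.25 and 7820.25 and a range from 1240 to 19847. The cells of both libraries covered nearly the same range, but the intervals of the medians did not overlap and the ratio was 1.26 (1.13 to 1.44). Intervals that failed to overlap with a higher median in HFD were found in 41.2% of the 17 types, and the median over all types was 1.13, so that a higher depth in HFD was common in these libraries. The ratio of monocytes was the second of 17, after 1.30 in NK cells and close to 1.24 in neutrophils, alveolar macrophages and ciliated cells. When divided by the ratio of the pooled medians of all other cells, taken as a fixed number, it was 1.18 (1.06 to 1.35). Endothelial cells, the most numerous type in this pool, had a ratio of 0.949. The pool also moves with the make-up of the libraries, so that an excess particular to monocytes cannot be read from this value.

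Among the percentiles compared, the difference was largest at the median. At the 10th percentile CD monocytes had 2760 UMIs and HFD monocytes 2912, a ratio of 1.06. At the 25th percentile the ratio was 1.18, at the 75th 1.16 and at the 90th 1.13. Monocytes of low depth were rare in both libraries. Under 2000 UMIs lay 7 CD monocytes (4.38%, 1.78 to 8.81) and 6 HFD monocytes (3.30%, 1.22 to 7.04), compared to 21.2% and 20.6% of all cells. Such cells were also few among macrophages, at 6.25% in CD (2.74 to 11.9) and 5.88% in HFD (2.72 to 10.9). These intervals overlapped those of monocytes. Monocytes over 10000 UMIs were 10 in CD (6.25%) and 16 in HFD (8.79%), with overlapping intervals.

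Detected genes followed the UMIs. The median was 1792 genes in CD monocytes (1719 to 1889, quartiles 1518.75 and 2174) and 2083.5 in HFD monocytes (1990 to 2126, quartiles 1758.5 and 2404.75). The intervals did not overlap, as in 41.2% of the types with the same direction, and the ratio of 1.16 (1.05 to 1.24) was the third of 17. Genes per UMI, a measure of how many different transcripts a cell yields for its depth, went the other way. CD monocytes had a median of 0.358 (0.350 to 0.373) and HFD monocytes one of 0.329 (0.321 to 0.341), which is a ratio of 0.918 (0.861 to 0.974). Intervals that did not overlap with a lower value in HFD were found in 35.3% of the types.

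**Figure D2:**
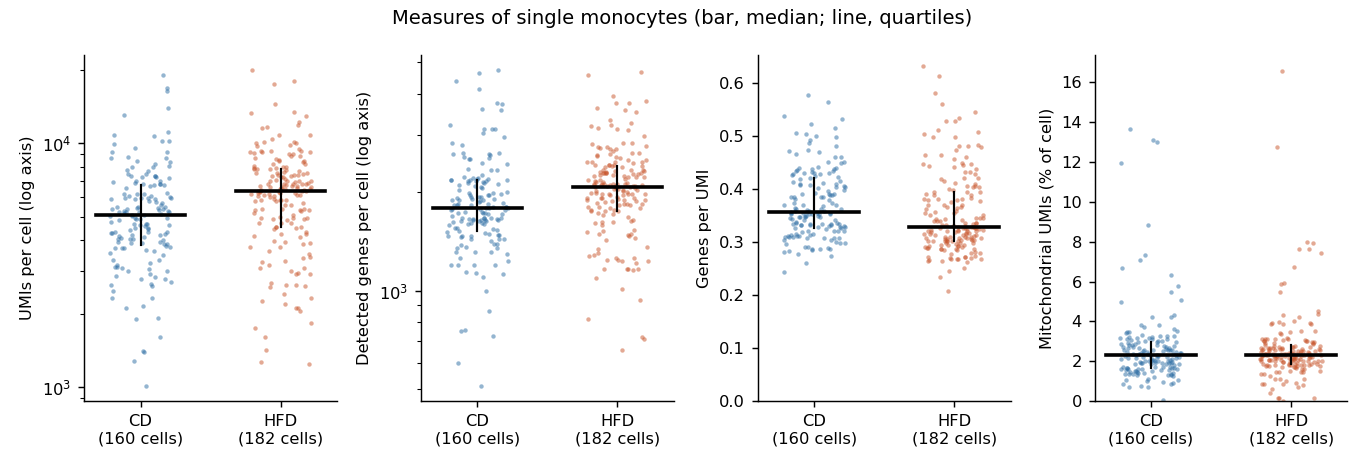
UMIs and detected genes per monocyte (log axes), genes per UMI and percent mitochondrial UMIs (linear axes from 0) for 160 CD and 182 HFD monocytes, 1 point per cell, with the median as a bar and the quartiles as a line. UMIs and genes are shifted upwards in HFD (medians of 6358 against 5065.5 UMIs), genes per UMI are shifted downwards, and the mitochondrial medians are level at 2.32%.

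Genes per UMI fall with depth in any cell, and for this reason both measures were also compared at similar depth. Over the monocytes of a library, UMIs and detected genes had a rank correlation of 0.960 in CD (160 cells) and 0.956 in HFD (182 cells), and UMIs and genes per UMI one of -0.874 and -0.888. These measures share the UMIs of the same cell and the values describe the cells only. A line through all monocytes on log scales, which allowed a step between the libraries, placed HFD monocytes at 0.995 times the genes of CD monocytes of the same UMIs. Among the monocytes between the quartiles of UMIs of both libraries (4058 to 7353 UMIs, 84 CD and 86 HFD cells) genes per UMI had a ratio of 0.961 (0.922 to 1.03), from 0.349 for CD (0.337 to 0.355) and 0.335 for HFD (0.327 to 0.345). Detected genes in this window were still higher in HFD, with a ratio of 1.07 (1.01 to 1.15) that excluded 1. So were the UMIs, with medians of 5352 in CD and 6143.5 in HFD and a ratio of 1.15 (1.01 to 1.24).

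**Figure D3:**
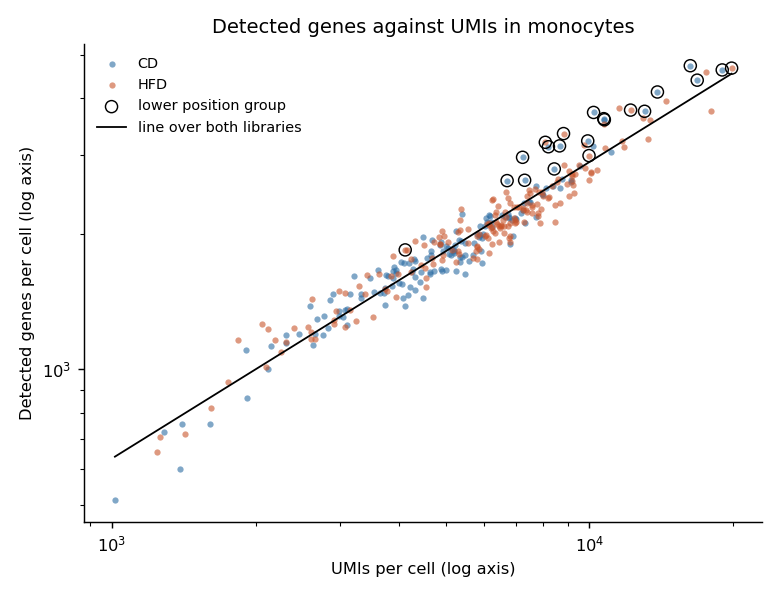
Detected genes against UMIs for each monocyte, both on log axes, CD in blue and HFD in orange, with the line fitted over both libraries and the cells of the lower position group circled. The libraries lie along the same line, and all 21 circled cells lie above it.

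The mitochondrial percent of monocytes did not differ detectably between the libraries. The CD median was 2.32% of UMIs (2.14 to 2.46, quartiles 1.66 and 2.97) and the HFD median 2.32% (2.22 to 2.43, quartiles 1.88 and 2.81), for a ratio of 1.00 (0.902 to 1.14). The intervals overlapped, whereas in 29.4% of the types they did not and HFD was higher. Mitochondrial UMIs themselves were higher in HFD, like all UMIs, with a median of 147.5 per cell (136 to 154) compared to 115 (96 to 132). Monocytes ranked 14th of 17 types in mitochondrial percent in both libraries. Above 10% lay 4 of 160 CD monocytes (2.50%, 0.685 to 6.28) and 2 of 182 HFD monocytes (1.10%, 0.133 to 3.91), against 2.49% and 4.15% of all cells. Above 5% lay 7.50% of the CD monocytes (3.94 to 12.7) and 6.04% of the HFD monocytes (3.06 to 10.6), against 18.0% and 23.3% of all cells.

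Macrophages had a higher mitochondrial median than monocytes in both libraries. It was 3.14% for CD macrophages (2.93 to 3.31) and 3.64% for HFD macrophages (3.33 to 3.90). Of the CD macrophages 8.59% lay above 5% (4.37 to 14.9), and of the HFD macrophages 20.9% (14.8 to 28.2). The macrophage interval overlapped that of monocytes in CD but not in HFD. Over all cells the share above 5% was 18.0% in CD and 23.3% in HFD. Whether the change between diets differs between the 2 types was not tested. Within the CD library monocytes had 0.736 times the mitochondrial percent of macrophages (0.648 to 0.840), and within the HFD library 0.638 times (0.570 to 0.732). Their median UMIs were 0.834 times those of CD macrophages (0.723 to 0.980) and 0.947 times those of HFD macrophages (0.808 to 1.10), an interval that included 1. Detected genes were 0.962 times those of macrophages in CD (0.833 to 1.07) and 0.984 times in HFD (0.866 to 1.07), and no difference was detectable. Genes per UMI, which fall with depth, were 1.11 times those of macrophages in CD (1.06 to 1.19). In HFD they were 1.05 times those of macrophages (0.991 to 1.12), with 1 inside the interval. Alveolar macrophages, with medians of 10841 UMIs in CD and 13483 in HFD, and conventional dendritic cells, with 8476 and 8987, were deeper than monocytes in both libraries. Neutrophils were far shallower, at 1666 and 2073 UMIs.

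Within the single cluster the monocytes were not spread evenly over the map. They lay in 3 dense parts joined by thin bridges and a small separate part. For description they were divided into 4 groups by k-means on their map positions, a division chosen after the map had been seen. The left group held 123 cells, the upper group 125, the right group 73 and the lower group 21, and 14 of the 342 cells lay near a boundary. The groups are given no cell type name, since marker values were not analysed here. As the map was built from the expression of these cells, the groups are no independent evidence of separate kinds of monocytes.

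**Figure D4:**
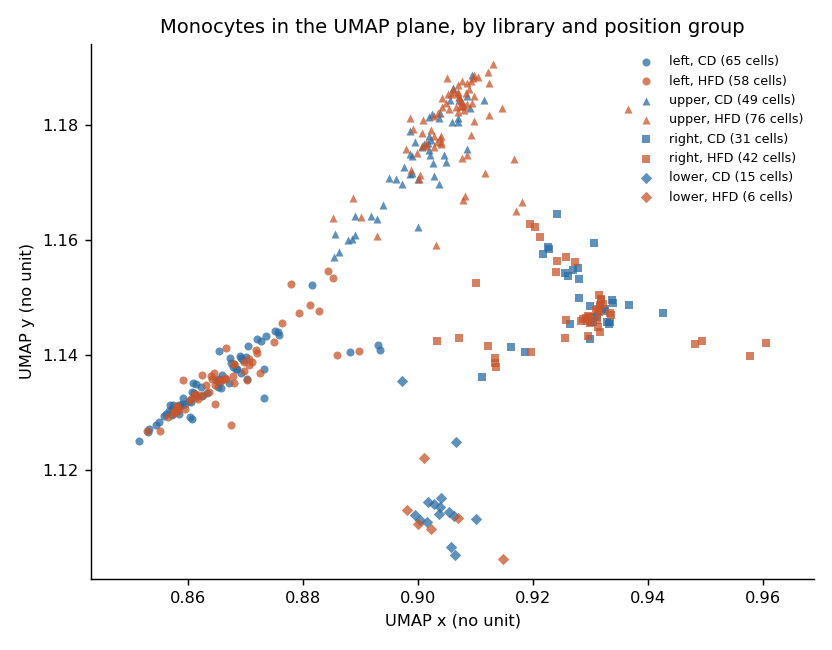
Positions of the 342 monocytes in the UMAP plane (axes without unit), CD in blue and HFD in orange, with a marker shape for each of the 4 position groups. Cells of both libraries occur in every group, and the lower group holds 15 CD and 6 HFD cells.

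The groups differed in depth and in genes for their depth. The left group was the shallowest, with a median of 3875 UMIs (3616 to 4154) and 0.420 genes per UMI. It held 35 monocytes under 3000 UMIs, compared to 5 each in the upper and right groups and 0 in the lower group. The upper and right groups had medians of 6675 UMIs (6259 to 6981) and 6278 UMIs (5816 to 6832), each with 0.321 genes per UMI. The lower group was the deepest, with a median of 9978 UMIs (8203 to 13043) and 3341 genes (2985 to 3768). All of its 21 cells had more genes than the line through all monocytes gives for their UMIs, by a median of 1.15 times (1.09 to 1.19). Cells caught together in 1 droplet would also be deep, and their part in this group was not tested. In the left group 67.5% of the cells lay above the line, in the upper group 28.8% and in the right group 20.5%. Medians of the mitochondrial percent ran from 2.22% in the left group to 2.55% in the lower group, with overlapping intervals.

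Cells of both diets were found in each group, in somewhat different proportions. The left group was 40.6% of CD monocytes (32.9 to 48.7, 65 cells) and 31.9% of HFD monocytes (25.2 to 39.2, 58 cells). The upper group was 30.6% in CD (23.6 to 38.4, 49 cells) and 41.8% in HFD (34.5 to 49.3, 76 cells). The right group was 19.4% in CD (31 cells) and 23.1% in HFD (42 cells). The lower group was 9.38% in CD (5.34 to 14.99, 15 cells) and 3.30% in HFD (1.22 to 7.04, 6 cells). The separate intervals overlapped for all 4 groups. The interval of the ratio included 1 for 3 of them and excluded it for the lower group (0.352, 0.112 to 0.959), which rests on 21 cells. Neighbours on the map were mixed by library nearly as the cell numbers would give. CD cells were 44.7% of the 15 nearest neighbours around HFD monocytes and 5.27 points more around CD monocytes. In this gap monocytes ranked 16th of the 48 fine clusters that held at least 10 cells of each library, whose median gap was 3.73 points.

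The depth of the libraries was also compared within each group. The upper group had a CD median of 5900 UMIs (5475 to 6160) and an HFD median of 7284.5 (6758 to 7801). These intervals were apart, and the ratio came to 1.23 (1.10 to 1.42). In the right group they were 5361 and 6649, a ratio of 1.24 (0.896 to 1.47). In the left group they were 3791 (3469 to 4030) and 4058 (3415 to 4720), a ratio of 1.07 (0.847 to 1.36). The lower group had 10199 and 9400.5, over 15 and 6 cells only. The intervals of the 4 ratios overlapped, and whether the ratio differs between groups was not tested. When each group was given the same weight in both libraries, the ratio over all monocytes was 1.21 in place of 1.26. With 1 group left out and fewer cells, the interval of the ratio included 1 without the left group (1.18, 0.986 to 1.35), without the upper group (1.27, 0.942 to 1.51) and without the right group (1.29, 0.987 to 1.55), and excluded 1 without the lower group (1.30, 1.13 to 1.54). For detected genes the interval included 1 without the left group (1.11, 0.975 to 1.22). For genes per UMI it did so without the upper group (0.941, 0.833 to 1.08) and without the right group (0.916, 0.835 to 1.04). Genes relative to the line were level between diets in each group, with ratios from 0.969 to 1.01.

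**Figure D5:**
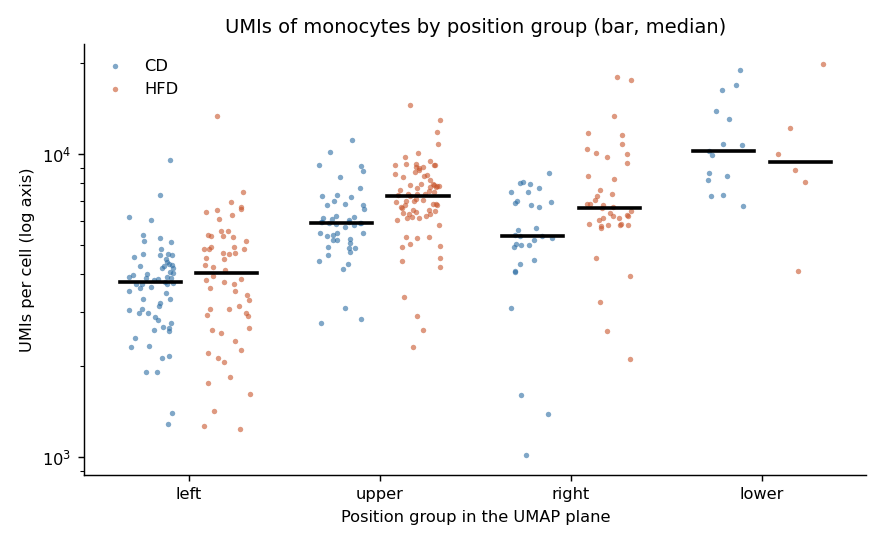
UMIs per monocyte (log axis) in the 4 position groups, CD in blue and HFD in orange, 1 point per cell, with the median as a bar. The bars are furthest apart in the upper and right groups (ratios of 1.23 and 1.24), and the left group is the shallowest in both libraries.

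The phagocytes were also compared among cells between 4058 and 7353 UMIs, a window in which their depth was closer but not equal. Monocytes had a median of 1870.5 genes in CD (1799 to 1937) and 2010.5 in HFD (1958 to 2077), at 5352 and 6143.5 UMIs. Macrophages in this window had 1790 (1704 to 1862) and 1909.5 (1774 to 2039), at 5547.5 and 5643.5 UMIs. HFD macrophages were thus shallower than HFD monocytes even here, and the intervals of the genes overlapped in both libraries. Conventional dendritic cells had 1776 (1564 to 1929) and 1804 (1653 to 1977), at 6187 and 6214 UMIs. Plasmacytoid dendritic cells had 2055.5 (1993 to 2205) and 2175.5 (2104 to 2394), at 5795 and 6304.5 UMIs. Alveolar macrophages had 2126 (1927 to 2322) and 1975 (1633 to 2249), at 5572 and 5546 UMIs, and the HFD value rests on 13 cells. Neutrophils had 1963.5 (1805 to 2359) and 1782.5 (1560 to 1982), at 5598 and 4771.5 UMIs, but only 26 of 363 CD and 30 of 380 HFD neutrophils lay in the window, which is far deeper than a typical neutrophil. The intervals of both types overlapped those of monocytes in both libraries, whereas those of plasmacytoid dendritic cells lay above them in both. In genes per UMI, monocytes had medians of 0.349 in CD and 0.335 in HFD. Higher medians were found in alveolar macrophages (0.372 and 0.369), neutrophils (0.388 and 0.368) and plasmacytoid dendritic cells (0.370 and 0.364). Lower ones were found in macrophages (0.325 and 0.328) and conventional dendritic cells (0.309 and 0.296). Genes per UMI fall with depth, and HFD neutrophils in the window were shallower than HFD monocytes. The median mitochondrial percent of monocytes in this window was 2.23% against 3.01% for macrophages in CD, and 2.27% against 3.27% in HFD.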

How the data were processed

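Per the labels and the study's methods, perfused lungs were digested, depleted of red blood cells and captured in droplets with a target of 10000 cells per library. The labels and the methods name different capture kits. The authors mapped reads to GRCm38.p6 (mm10) with Cell Ranger, merged both libraries in Seurat (4.1.0 in the submitters' processing notes), and kept cells with at most 20% mitochondrial RNA, at least 500 UMIs and at least 250 genes. In the table no cell had under 1000 UMIs. No removal of doublets is stated, and a caller needs gene values not used here. Clusters were made in a UMAP plane of both libraries and named by hand.

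The deposited cell table gives, for each cell, raw counts of UMIs and of detected genes, the percent of mitochondrial UMIs, and UMAP coordinates (unit-free scores). The deposited gene table gives flags only. Depth was 42470977 UMIs in CD and 50679251 in HFD.

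Cells were assigned by library name. Shares have exact (Clopper-Pearson) 95% intervals, ratios of shares exact binomial intervals conditional on both libraries, and monocytes per other cell conditional exact odds ratio intervals. Medians have order-statistic 95% intervals, and their ratios the outer bounds of both. These bounds are wider than a 95% interval of the ratio and include 1 whenever the intervals of the 2 medians overlap. The calculations were tested on simulated libraries. Thinning to a common depth needs values of single genes, so genes were compared at similar UMIs instead. Position groups came from k-means (4 groups, 50 starts). Of the barcodes, 27 occurred in both libraries. They included 1 HFD monocyte (3733 UMIs), whose barcode also belonged to an unannotated CD cell. Named items were Ly6c2, Ccr2, the listed marker genes (1 of which is not reported here), all monocyte clusters, the phagocyte types set beside monocytes and the types next in rank. The monocytes, the lists and the comparisons were chosen with earlier results of these data known. Gene positions are from GENCODE M21 (GRCm38). Python 3.11.15, pandas 2.3.3, numpy 2.4.6, scipy 1.17.1, scikit-learn 1.9.0 and matplotlib 3.10.9 were used.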

Additional observations from a re-analysis of the deposited data

How the results depend on the processing

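Of 103 values under alternative settings, 13 could not show a change, because they gave the make-up of a type with 1 cluster or left the ratio and its interval as reported. Of the other 90, 88 stayed within the interval of the reported ratio. Many reused nearly all the same cells, and 16 only took 1 other type out of the total. Such settings could hardly leave the interval, so that this count says little about stability. The exceptions were detected genes and genes per UMI at equal UMIs, both 0.995 in place of 1.16 and 0.918. Both give the same fitted step. The change follows from the setting, which removes the difference in depth. The monocyte share ratio ranged from 0.993 (total without endothelial cells) to 1.13, and monocytes per macrophage from 0.937 to 1.25 (per alveolar macrophage). All of these intervals included 1. The UMI ratio ranged from 1.18 to 1.30 and stayed above 1, but its interval included 1 without the left, upper or right group. The interval also included 1 for detected genes without the left group, and for genes per UMI without the upper or right group and between the quartiles of UMIs (0.961, 0.922 to 1.03). The mitochondrial ratio ranged from 0.937 to 1.04. All settings by map position, the removal of shared barcodes and the ratio to dendritic cells were chosen with the data already seen. Leaving out or reweighting fine clusters gave no value, because monocytes and macrophages have 1 cluster each, and a minimum of 500 genes removed no monocyte. No paired analysis was possible because a diet is 1 library.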
